A study of Mus musculus with 8 samples.

Results

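Crypt-type colonocyte barcodes were chosen in mouse colon by the level of 8 genes, among them Ybx2 and Myb, and made up 177 of 1403 kept barcodes, from 8588 deposited barcodes in all. A kept barcode held at least 100 UMIs (unique molecular identifiers, each standing for 1 counted probe pair bound to RNA), with a haemoglobin share below 0.25 and a mitochondrially encoded share below 0.5. A crypt-type barcode was a kept barcode with at least 2 UMIs of Ybx2, Myb, Hao2, Fam3d, B3gnt7, Slc20a1, Casd1 and Acly together, more of these than of 11 absorptive colonocyte genes (Slc26a3, Car1, Car4, Aqp8, Ceacam20, Guca2a, Slc51b, Cyp2c55, Dpep1, Mep1a and Krt20), and fewer than 5 UMIs of the 4 goblet genes Muc2, Fcgbp, Clca1 and Zg16. By the same counts, 367 barcodes were absorptive (at least 2 UMIs of the 11 genes, more than of the 8, and the same goblet limit), 208 were goblet (5 or more goblet UMIs) and 651 fell in none of these classes. The 8 genes had been taken from a clustering of these same barcodes, so the levels of genes in crypt-type barcodes beside other barcodes are given here as description, with no test; the comparison of diets was tested over mice.

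The tissue came from C57BL/6 mice fed for 3 weeks on corn oil with cellulose (4 mice, called CO1 to CO4) or on fish oil with pectin (4 mice, called FO1 to FO4), so oil and fibre changed together, and each mouse gave 1 library. Per the labels, colon rolls embedded in paraffin were cut at 50 µm, and 2 sections per mouse were profiled with a fixed RNA kit that counts RNA through gene-specific probes. The series title sets the question in ferroptosis, an iron-dependent cell death, of colonocytes. Sex, age and region of the colon were not given in the sources used here. The labels call the samples colonocytes, but a roll of whole colon holds the other layers too, and the kept barcodes outside the 3 epithelial classes carried fibroblast genes at 67.3 UMIs per 10000.

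In the colon, the lining is renewed from stem cells at the base of the crypts, whose daughters divide, move up and become absorptive or goblet cells. Myb, a transcription factor, is needed in mice for the progenitors of the colonic crypt. Ybx2 encodes a Y-box protein that binds RNA and is best known from germ cells. Fam3d encodes a secreted protein of the gut, Hao2 a peroxisomal oxidase of hydroxy acids, Slc20a1 a sodium-dependent phosphate carrier, B3gnt7 an enzyme that extends sugar chains, Casd1 the enzyme that O-acetylates sialic acid, and Acly the enzyme that makes cytosolic acetyl-CoA for lipid synthesis. In the GRCm38 annotation (GENCODE M21), Myb lies at chr10:21124935-21160984 on the minus strand and Ybx2 at chr11:69935796-69941605 on the plus strand.

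Each deposited barcode starts with the 16 bases of its droplet and ends with an 8-base sample barcode, and the sample barcodes show which libraries could have shared a run, because a sample barcode can be used once per pool. They are printed here since the pools split the diets unevenly, and capitals mark the whole barcode.
mice CO1 and CO4: ACTTTAGG
mouse CO2 and mouse FO2: AACGGGAA
mouse CO3 and mouse FO3: AGTAGGCT
mice FO1 and FO4: ATGTTGAC
Each of the 4 sequences occurred in 2 libraries, and droplet barcodes were shared 189 times within and 24 times between the 2 sets of libraries called pools here. The pools were taken as the split of the libraries with the most sharing inside. Pool 1 held mice CO1, CO2 and CO3 with mouse FO1, and pool 2 held the other mice. Of the 177 crypt-type barcodes, 13 lay in a droplet barcode found in another library of the same pool; without these 13 the diet test below still called 0 genes.

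Crypt-type barcodes were spread very unevenly over mice. Mice CO1 to CO4 held 11, 25, 7 and 37 of them, and mice FO1 to FO4 held 6, 7, 2 and 82. Mouse FO4 alone gave 46.3% of the crypt-type barcodes and 61.5% of their UMIs, and mouse CO4 gave a further 20.9% and 21.0%. The median crypt-type barcode held 571.5 UMIs in mouse FO4 and 370 in mouse CO4, against 144 to 616 in the other CO mice and 189 to 223.5 in the other FO mice. Any statement on all crypt-type barcodes is therefore mainly a statement on mice CO4 and FO4, one of each diet and both in pool 2, which together held 119 of the barcodes. With all mice pooled, 5.56% of kept barcodes with 100 to 199 UMIs were crypt-type, 13.9% of those with 200 to 499 and 22.2% of those with 500 or more. Mice CO4 and FO4 gave 0 of the 522 kept barcodes in the lowest range, 319 of 570 in the middle and 241 of 311 in the highest. In these mice 17.6% and 26.1% were crypt-type in the middle and highest ranges. The ranges thus differed in their mice as well as in depth. The part of depth in the spread over mice was not tested beyond the thinned values given with the diets.

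**Figure D1:**
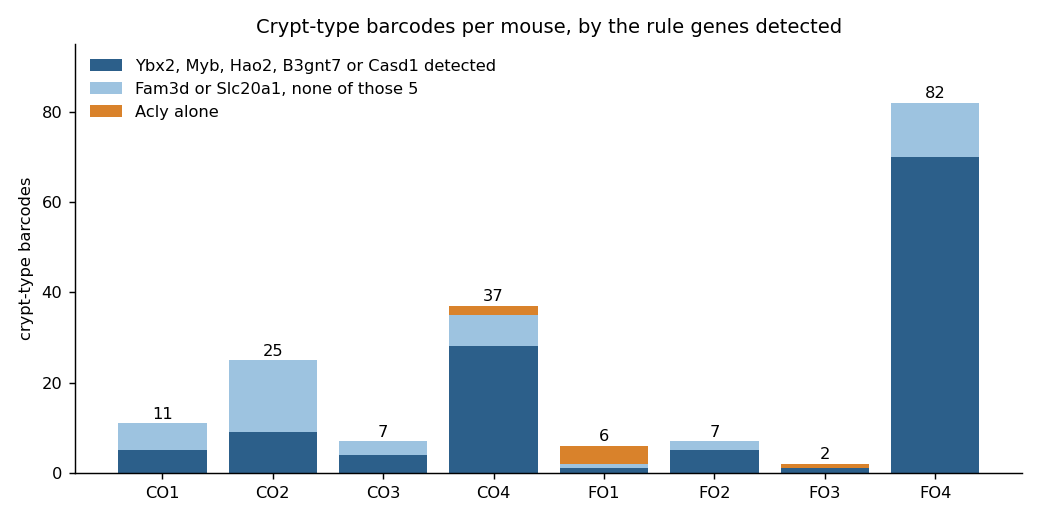
Number of crypt-type barcodes in each mouse (bars), divided by which of the 8 rule genes were detected. Mice CO4 and FO4 hold 119 of the 177, and most of their barcodes carry at least 1 of Ybx2, Myb, Hao2, B3gnt7 and Casd1, whereas 4 of the 6 in mouse FO1 carry Acly alone.

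The 8 genes that chose these barcodes did so unequally. Myb UMIs numbered 2, 1, 0 and 10 in the crypt-type barcodes of mice CO1 to CO4, and 0, 2, 0 and 37 in those of mice FO1 to FO4. Over all mice this was 6.02 per 10000 UMIs, beside 0.06 in absorptive, 0.35 in goblet and 0.20 in the remaining barcodes. Myb was detected in 18.6% of crypt-type barcodes (median depth 419 UMIs), in 0.27% of absorptive barcodes (median depth 344) and in 2.88% of goblet barcodes (median depth 541.5).

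Ybx2 UMIs numbered 3, 8, 4 and 25 in CO and 1, 1, 1 and 79 in FO mice, and Ybx2 was detected in 39.5% of crypt-type, 11.7% of absorptive and 10.6% of goblet barcodes. Its level was 14.1 per 10000 in crypt-type barcodes, 4.07 in absorptive and 1.53 in goblet barcodes. Casd1, at 42 UMIs or 4.86 per 10000, came close to Myb in how few absorptive barcodes held it (2 UMIs). Hao2 stood at 7.87 per 10000 against 0.99 in absorptive barcodes, B3gnt7 at 12.3 against 2.34, Fam3d at 36.2 against 11.2, and Acly at 15.5 against 1.23.

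Slc20a1 went different ways in different mice. Summed over all mice its level was 22.8 per 10000 in crypt-type and 26.4 in absorptive barcodes, and it was also lower in crypt-type barcodes of mice CO4 (17.6 against 27.7), FO4 (21.5 against 35.3) and FO3 (0 against 8 UMIs). In mice CO1, CO2 and CO3 crypt-type barcodes held more, at 57.0, 57.9 and 16.4 per 10000 against 17.8, 20.5 and 8.96, and in mice FO1 and FO2 they held 2 and 1 UMIs against 0. Neither Myb nor Ybx2 was detected in 89 of the 177 barcodes, 88 held either and 15 held both. At least 2 of the 5 genes Ybx2, Myb, Hao2, B3gnt7 and Casd1 were found together in 73 barcodes.

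**Figure D2:**
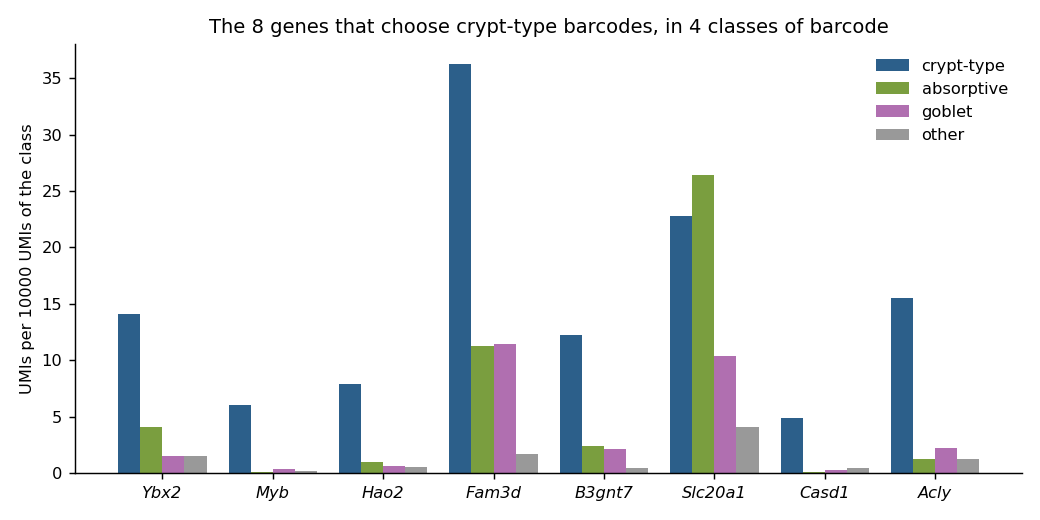
UMIs of each of the 8 rule genes per 10000 UMIs, in crypt-type, absorptive, goblet and remaining barcodes summed over all mice. These genes chose the class, so the bars describe it; for Slc20a1 the absorptive bar (26.4) stands above the crypt-type bar (22.8), a sum weighted towards mice CO4 and FO4, while in mice CO1, CO2 and CO3 its crypt-type level was the higher.

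Barcodes near the limits of the rule were many. With exactly 2 UMIs of the 8 genes 44 barcodes were inside, with 3 UMIs 30, and with 4 or more 103. Just outside were 55 barcodes with 1 such UMI and no absorptive UMI, 14 with equal numbers of both kinds, and 36 that met the rule but for their goblet UMIs. Genes of the crypt base list, none of which the rule used, stood at 10.4 per 10000 in barcodes with 2 rule UMIs and 20.8 in those with 4 or more, and at 15.1 in those with 1 UMI outside. The 23 barcodes with just 1 more crypt-type than absorptive UMI held 3.48 per 10000 of the crypt base genes and no cell cycle UMI.

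The label was checked against marker lists. Most of these barcodes were epithelial: the list of 18 epithelial genes outside the rule stood at 127 per 10000 in crypt-type barcodes, at 181 in absorptive and at 228 in goblet barcodes, and 163 of the 177 held at least 1 of its UMIs. Its leading members were Lgals4, a gut lectin (237 UMIs), the keratins Krt19 (174) and Krt8 (162), and the epithelial transcription factor Elf3 (120). Goblet genes beyond the rule stood at 17.8 per 10000 against 123 in goblet barcodes. Enteroendocrine, tuft, fibroblast, endothelial, macrophage and enteric nerve lists each stood below 3 per 10000, the smooth muscle list stood at 5.0, and the lymphocyte and plasma list at 5.2, with 39 of its 45 UMIs from Xbp1, which secretory epithelium also uses.

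A few barcodes went against the label. Adipocyte and mesothelial genes (9 listed, among them Fabp4, Plin1, Lpl and Cidec) were found in 8 of the 177 barcodes, with at least 2 UMIs in each: 5 of the 6 in mouse FO1, 1 of the 2 in mouse FO3, and 2 of the 37 in mouse CO4. These 8 held adipocyte genes at 145.9 per 10000 and epithelial genes at 13.0, against 131.5 for epithelial genes in the other 169, which held no adipocyte UMI. Acly, which adipocytes also express, gave 11 of 14 rule UMIs in mouse FO1 and 6 of 7 in mouse FO3. A rule without Acly left 161 barcodes, 1 in mouse FO1 and none in mouse FO3, so those mice contributed almost no epithelial crypt-type barcodes. Mouse CO2 differed in another way: 16 of its 25 barcodes carried Fam3d or Slc20a1 with none of Ybx2, Myb, Hao2, B3gnt7 and Casd1. Over all mice 123 barcodes held at least 1 of those 5 genes, 47 held Fam3d or Slc20a1 without them, and 7 held Acly alone; this division was chosen after the values were seen.

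Crypt base and stem genes were found mainly in mice CO4 and FO4. UMIs of the 20 listed genes numbered 2, 5, 0 and 22 in the crypt-type barcodes of mice CO1 to CO4 and 2, 0, 0 and 135 in those of mice FO1 to FO4. As levels this was 12.1 per 10000 in mouse CO4 and 25.4 in mouse FO4, where absorptive barcodes of the same mice held 3.1 and 3.5. Over all mice the list stood at 19.2 per 10000 in crypt-type barcodes (exact 95% Poisson interval 16.4 to 22.4, counting error only), 3.9 in absorptive (3.0 to 5.0), 6.3 in goblet and 7.2 in the remaining barcodes. The level in crypt-type barcodes lay above that in absorptive barcodes in 4 of 8 mice and below it in 4, and without mouse FO4 it was 9.3 against 4.2. In the other 6 mice no more than 5 crypt base UMIs per mouse were found. At this depth a count of 0 over all crypt-type barcodes allows a level of up to 0.347 per 10000, and over all absorptive barcodes up to 0.185 (3 counts of the total).

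The stem cell genes most used to define the crypt base were barely seen. Lgr5, a receptor for R-spondins that marks crypt base stem cells, gave 1 UMI in all crypt-type barcodes, and Ascl2, a transcription factor of the same cells, gave 3; both genes' UMIs came from mouse FO4. Olfm4, Cd44, Nkd1 and Tnfrsf19 were at 0. The list was carried by Lrig1, an inhibitor of growth factor receptors (21 UMIs against 2 in absorptive barcodes), Cdca7, a Myc-responsive gene (20 against 0), Slc12a2, the basolateral chloride carrier of crypt cells (18 against 1), and Axin2, a feedback inhibitor and target of Wnt signalling (14 against 2). Of these, 12 Lrig1, 18 Cdca7, 17 Slc12a2 and all 14 Axin2 UMIs came from mouse FO4. Lrig1 was also present in mouse CO4, with 8 UMIs. Ephb2, a receptor that falls along the crypt axis, was at 8 UMIs against 0, from both CO4 and FO4, and Sox9, a progenitor transcription factor, was at 13 against 6. Slc12a2 was not limited to these barcodes, since goblet barcodes held it at 1.88 per 10000 against 2.08 in crypt-type ones.

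Cell cycle genes followed the same mice. UMIs of the 29 measured genes numbered 0, 1, 2 and 16 in CO and 1, 1, 0 and 87 in FO mice, and 28 of the 29 were detected in crypt-type barcodes against 11 in absorptive ones. The list stood at 12.5 per 10000 in crypt-type barcodes (interval 10.3 to 15.1), 2.0 in absorptive, 2.1 in goblet and 5.1 in the remaining barcodes. Mcm7, part of the helicase that opens DNA for replication, gave 13 UMIs, Top2a, the topoisomerase of dividing cells, 9, Cdk1, the kinase of mitotic entry, 8, and Mki67, the usual proliferation marker, 5. In absorptive barcodes these 4 genes gave 3, 1, 1 and 0 UMIs from 162221 UMIs, where crypt-type barcodes gave 86420. Cell cycle UMIs lay in 38 of the 177 barcodes, 33 of them in mice CO4 and FO4.

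The list of acetyl-CoA and fatty acid synthesis includes Acly, 1 of the 8 rule genes, detected in 68 of the 177 crypt-type barcodes. Leaving Acly out therefore does not make the list independent of the rule. With Acly left out, its genes stood at 27.7 per 10000 in crypt-type and 6.3 in absorptive barcodes. Part of this came from the adipocyte-gene barcodes: the level was 315.9 in mouse FO1 and 608.5 in mouse FO3, from 46 and 23 UMIs. Without the 8 adipocyte-gene barcodes it was 19.2 per 10000 (interval 16.3 to 22.4), and it was 20.4 in mouse CO4 and 20.7 in mouse FO4, where absorptive barcodes held 4.6 and 6.6. In mouse FO4 no crypt-type barcode held an adipocyte UMI, whereas the value of mouse CO4 includes its adipocyte-gene barcodes. The levels of these mice are therefore not like for like, and the part of those barcodes in the CO4 value was not tested.

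Members of the list behaved unequally. Mlxipl, the glucose-sensing transcription factor ChREBP, gave 9 UMIs in mouse CO4 and 22 in mouse FO4, or 4.96 and 4.14 per 10000 against 0.22 and 0.55 in absorptive barcodes, and a further 16 came from mouse FO1. Fads2, the Δ6 desaturase of polyunsaturated fatty acids, stood at 2.76 and 3.20 per 10000 in mice CO4 and FO4 against 0.22 and 0.69. Scd2, a stearoyl-CoA desaturase, gave 20 of its 27 UMIs in mouse FO4. Its paralog Scd1 gave 13 of 16 in mice FO1 and FO3 and none in mouse FO4. Fasn, the fatty acid synthase, was at 8 UMIs in mouse CO4 and 9 in mouse FO4, and Acaca, which makes malonyl-CoA, at 1 and 4. Acss2, which makes acetyl-CoA from acetate, stood at 3.31 and 2.82 per 10000 against 0.44 and 0.97.

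The remaining lipid lists lay closer to absorptive barcodes. Cholesterol synthesis stood at 12.8 per 10000 against 11.4, and fatty acid oxidation with peroxisomal genes at 28.7 against 32.2. Ketone and short-chain fatty acid genes stood at 13.7 against 9.9; Slc5a8, a sodium-coupled carrier of short-chain fatty acids, gave 24 UMIs against 10, whereas Slc16a1, the monocarboxylate carrier, stood at 1.85 per 10000 against 2.22.

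As a list, mature absorptive genes were lower in crypt-type than in absorptive barcodes of all 8 mice. The list of 26 such genes outside the rule stood at 92.0 per 10000 against 182.3, with 119.7, 104.2, 61.3 and 85.5 in CO and 48.1, 94.0, 52.9 and 96.4 in FO mice. The rule favoured barcodes with few absorptive UMIs, so a difference in this direction was built in. Lypd8, a protein that keeps bacteria from the epithelium, stood at 9.84 per 10000 against 27.2, the membrane mucin Muc3 at 14.2 against 20.1, and Muc13 at 31.1 against 43.9. The list was not silent in crypt-type barcodes: 154 of the 177 held at least 1 of its UMIs. Not every member was lower: Slc5a8, described above, stood higher in crypt-type than in absorptive barcodes. Sult1a1, also on this list, stood higher in crypt-type barcodes of mice CO4 and FO4 than in all their other kept barcodes.

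Immediate early and stress genes were also lower in all 8 mice, at 28.2 per 10000 against 62.4. In crypt-type barcodes they stood at 11.4, 69.5, 38.8 and 13.8 per 10000 in mice CO1 to CO4 and at 0, 26.9, 0 and 29.7 in mice FO1 to FO4. The values of 0 came from 1456 and 378 UMIs in mice FO1 and FO3, partly from adipocyte-gene barcodes, so the direction in these mice carries little weight. Klf4, a factor of differentiating surface cells, stood at 8.33 against 14.7, Fos at 1.04 against 3.51 and Atf3 at 0.23 against 2.47, and Maff was at 1 UMI against 17. Mouse CO2 held the highest level among crypt-type barcodes of all mice, while its absorptive barcodes held 98.6.

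Lists on ferroptosis and iron were in view because of the study's subject. Of the suppressor list, the 24 measured genes stood at 26.3 per 10000 in crypt-type and 50.9 in absorptive barcodes, while the driver list stood at 26.2 against 20.2. Prdx6, a peroxiredoxin that repairs oxidised phospholipids, led the suppressors with 63 UMIs (7.29 against 19.5 per 10000). Slc1a5, the glutamine carrier listed as a driver, gave 66 UMIs, 13 of them in mice FO1 and FO3. Iron handling genes stood at 13.8 against 21.5, and its members went both ways. Fth1, the ferritin heavy chain, stood at 1.27 per 10000 against 8.08, Slc40a1, the iron exporter ferroportin, at 1.74 against 4.07, and Tfrc, the transferrin receptor, at 1.97 against 0.18. Fth1 and Slc40a1 are on both the suppressor and the iron list. With Prdx6 they held most of the suppressor difference, and without them the iron list would not be lower in crypt-type barcodes. In mice CO4 and FO4 Fth1 was at 1.10 and 0.94 against 12.1 and 6.23, and Tfrc at 2.21 and 2.45 against 0.22 and 0.14, so each kept its direction in both mice.

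Pathways linked to the crypt showed smaller differences. Wnt pathway genes stood at 27.7 per 10000 against 23.5; Tcf7l2, the transcription factor at the end of that pathway, stood at 4.17 against 8.57. Notch pathway genes stood at 11.3 against 8.5, led by the target gene Hes1 with 40 UMIs. Hes1 stood at 4.63 against 1.54 and held the whole list difference, so the other Notch genes together were not higher. Glycosylation and sialic acid genes other than B3gnt7 and Casd1 stood at 40.7 against 39.1, with St6galnac6, a sialyltransferase, at 8.79 against 4.93. The other Y-box genes gave few UMIs: Ybx3 25 and Ybx1 11, at 2.89 and 1.27 per 10000. Msi2, an RNA-binding protein of progenitors, gave 28 UMIs, at 3.24 against 0.80.

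Among single genes outside the rule, those that led the class were sought in mice with at least 5 barcodes of both classes and at least 40 UMIs over both. In the 7 such mice 1276 genes were considered; 1 gene, Golm1, a Golgi membrane protein, was higher in crypt-type barcodes in every mouse, and 25 were lower in every mouse. Few UMIs limited these counts: 1254 of the 1276 had no crypt-type UMI in at least 1 of the 7 mice and so could not be higher in all, and 15 of the 25 lower genes were at 0 in the crypt-type barcodes of all 3 shallowest mice, CO1, FO1 and FO2, which gave 1754, 1456 and 1489 UMIs. Golm1 gave 1, 4, 2 and 13 UMIs in mice CO1 to CO4 and 1, 5 and 48 in mice FO1, FO2 and FO4. Its mean log2 ratio of levels (UMIs per 10000, 1 added) was 1.10 ± 1.01 (SD, n = 7 mice). The smallest of the 7 ratios came from mouse CO4, with 7.17 against 6.81 per 10000. Saa1, an acute phase protein of the epithelium, led the lower genes, with a mean log2 ratio of -3.58 ± 1.26 (SD, n = 7), followed by Mxd1, a Myc antagonist of differentiating cells, at -2.40 ± 1.02, and Cdhr5, a cadherin of the brush border, at -2.35 ± 1.07. Saa1 was at 0 crypt-type UMIs in mice CO1, FO1 and FO2, and Mxd1 in mouse FO2. There the ratio was set by the 1 added and the absorptive level. Of the 25 lower genes, 23 were at 0 in at least 1 of these 3 mice. A near-identical Saa gene may share probes with Saa1.

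With only mice CO4 and FO4, chosen after their depth was seen, 919 genes were considered, of which 195 were higher and 448 lower in crypt-type barcodes of both. Genes entered by their UMIs over both classes, and absorptive barcodes held more: 45501 and 72181 UMIs against 18134 and 53138. Genes high in absorptive barcodes therefore entered more readily, so these counts do not show which direction was the more common. Gsdmc4, a member of the gasdermin C family that forms membrane pores, gave 12 UMIs in mouse CO4 and 51 in mouse FO4, at 6.62 and 9.60 per 10000 against 0.44 and 1.11 in absorptive barcodes. Against all other kept barcodes its neighbours Gsdmc2 and Gsdmc3 also led, with 31 and 38 UMIs in the 2 mice; these genes are close copies whose probes may not separate them. Ern2, the stress sensor IRE1β of mucus-making epithelia, stood at 3.86 and 6.77 against 0.22 and 0.28, and goblet barcodes held it too, at 8.18 over all mice. Hes1 stood at 6.07 and 4.52 against 1.32 and 0.83. Ppp1r1b, an inhibitor of protein phosphatase 1, stood at 3.86 and 7.72 against 2.20 and 0.55.

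Other leading genes had varied roles. Zan, first known as a sperm membrane protein in mice, gave 37 UMIs in the 2 mice against 3 in their absorptive barcodes. Gas6, a ligand of TAM receptors, gave 43, and Far1, which makes fatty alcohols for ether lipids, gave 36. Slc39a5, a basolateral zinc carrier, stood at 6.62 and 4.89 per 10000 against 1.10 and 1.11. Mat2a, which makes S-adenosylmethionine, stood at 13.8 and 16.4 against 4.18 and 6.37, and the splicing factor Srsf6 gave 29 and 43 UMIs against 19 and 21 in the more numerous absorptive barcodes. Against all other kept barcodes, Mecr, of mitochondrial fatty acid synthesis, and Sult1a1, a phenol sulfotransferase, also led, with 37 and 28 UMIs in the 2 mice against 5 and 12.

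Genes lower in crypt-type than in absorptive barcodes of both mice included Lama3, a laminin chain (0 and 4 UMIs against 42 and 50), Sprr2a3, a small proline-rich protein (2 and 3 against 50 and 57), and Pmaip1, which promotes cell death (0 and 6 against 25 and 48). Mxd1 stood at 5.51 and 5.83 per 10000 against 33.0 and 41.3. The cell cycle inhibitor Cdkn1a was at 1 and 20 UMIs against 51 and 64, and the proton pump Atp12a stood at 2.76 and 7.53 per 10000 against 16.9 and 25.5. Slc15a1, a peptide carrier, gave 5 UMIs in the 2 mice against 68. The goblet-related gene Bcas1 was at 0 of 71272 crypt-type UMIs in these mice, which allows up to 0.421 per 10000, against 116 UMIs in all their other kept barcodes.

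**Figure D3:**
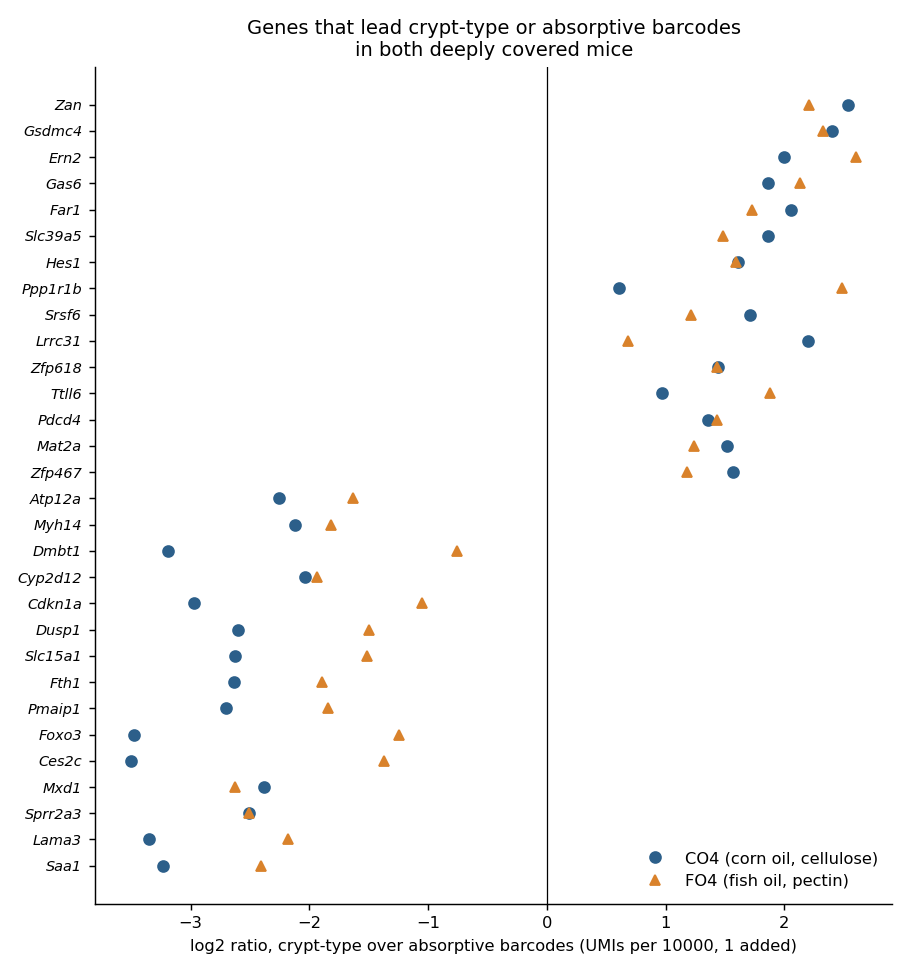
The 15 genes highest and the 15 lowest in crypt-type against absorptive barcodes among genes with the same direction in both CO4 and FO4, as the log2 ratio of UMIs per 10000 with 1 added. Circles are mouse CO4 and triangles mouse FO4; genes were ranked by these values, so their size is a description, and Dmbt1, Cdkn1a, Foxo3 and Ces2c lie closer to 0 in the FO mouse.

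The diets were compared over mice. Crypt-type barcodes made up 6.08%, 11.7%, 8.64% and 12.2% of kept barcodes in mice CO1 to CO4, and 8.11%, 3.32%, 2.44% and 31.9% in mice FO1 to FO4. The highest and both lowest values came from FO mice, so the groups overlapped. The means were 9.65% ± 2.86 and 11.4% ± 13.9 (SD, n = 4 each), a difference of 1.79 percentage points (two-sided exact permutation p = 0.971; the smallest p this design allows is 0.0286). The sign came from 1 mouse: without mouse FO4 the difference was -5.03 points (exact permutation p = 0.114). Within pool 1, with 1 FO mouse, it was -0.692 points and within pool 2, with 1 CO mouse, 0.343. The exact 95% binomial interval of the share in FO4 ran from 26.3% to 38.0%, and its kept barcodes had a median of 546 UMIs against 140 to 162 in the other FO mice. With each barcode thinned to 100 UMIs its share was 13.2%, against 1.22% to 5.41% in the other FO mice and 0% to 5.61% in CO mice.

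As a share of crypt-type, absorptive and goblet barcodes together, crypt-type barcodes made up 37.9%, 29.1%, 13.0% and 16.8% in CO and 37.5%, 8.75%, 5.26% and 35.8% in FO mice. The means were 24.2% ± 11.4 and 21.8% ± 17.2 (SD, n = 4 each; exact permutation p = 0.743). In 6 alternative settings the difference of -2.37 points turned positive, and it was 10.8 points within pool 1 and -0.211 within pool 2. In each mouse a larger share and a higher level of the 8 rule genes cannot be told apart. Of the 6 counted in mouse FO1, 5 were the adipocyte-gene barcodes described above; without such barcodes the difference was -9.92 points (exact permutation p = 0.257), and with Acly out of the rule it was -9.98 (exact permutation p = 0.286).

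**Figure D4:**
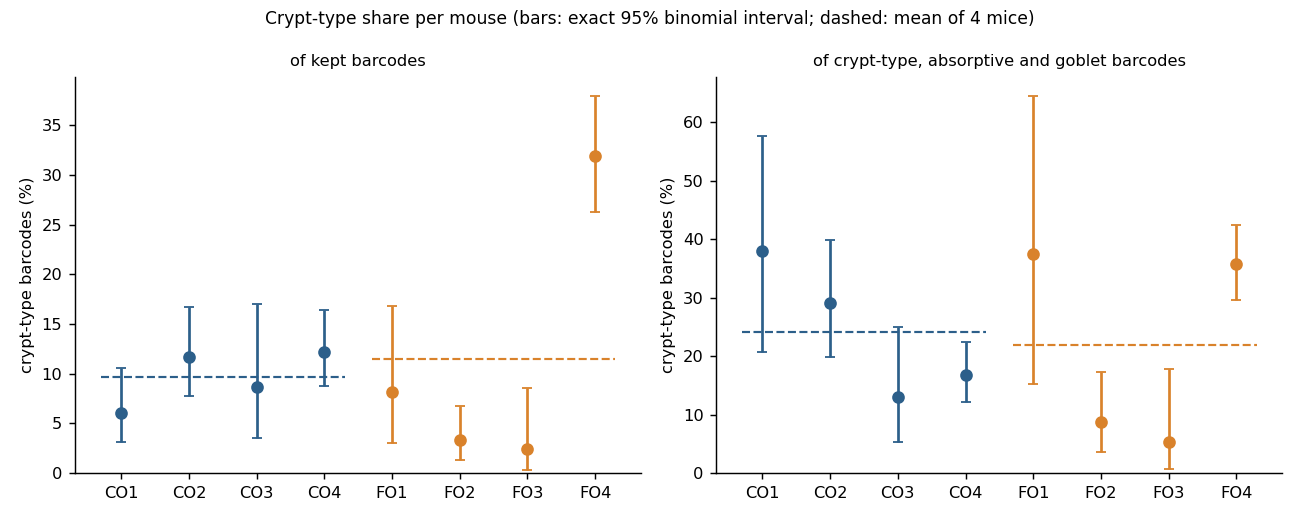
Crypt-type barcodes per mouse as a share of kept barcodes (left) and of crypt-type, absorptive and goblet barcodes (right), in percent; points are mice, bars exact 95% binomial intervals (counting error only), dashed lines the mean of 4 mice. Mouse FO4, at 31.9%, stands above all other mice on the left, and the diets overlap in both panels.

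Cell cycle genes in crypt-type barcodes stood at 0, 1.93, 4.09 and 8.82 per 10000 in CO mice and at 6.87, 6.72 and 16.4 in mice FO1, FO2 and FO4; mouse FO3, with 2 barcodes, was left out of this and the following comparisons. The means were 3.71 ± 3.80 (SD, n = 4) and 9.99 ± 5.53 (SD, n = 3), and the groups overlapped (difference 6.27, two-sided exact permutation p = 0.171; adjusted over the 4 measures compared between diets, 0.686; smallest p possible 0.0571). The values of mice FO1 and FO2 each came from 1 UMI, and that of FO1 lay in an adipocyte-gene barcode. Crypt base genes stood at 8.30 ± 5.63 (SD, n = 4) and 13.0 ± 12.7 per 10000 (SD, n = 3), with 0 in mouse FO2 and 25.4 in mouse FO4 (exact permutation p = 0.457). Leaving out mouse FO4 turned that difference from 4.75 to -1.43, and it was 6.72 within pool 1 and 0.571 within pool 2. The pool 1 value rested on a few UMIs of mouse FO1, where most crypt-type barcodes held adipocyte genes. For cell cycle genes the within-pool differences were 4.86 and 2.72, the former resting on the 1 UMI of mouse FO1; without adipocyte-gene barcodes that mouse held 1 barcode and no cell cycle UMI, and pool 1 gave no comparison.

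Gene by gene, no diet difference passed the test. Summed per mouse over crypt-type barcodes, 32 genes had enough UMIs, and edgeR's quasi-likelihood test called 0 of them (0% at a Benjamini-Hochberg adjusted p under 0.05), with 0 at an unadjusted p under 0.05; DESeq2 also called 0, with 0 unadjusted, and limma voom called 0, with 2 unadjusted. Of the 32 genes, 11 had a positive and 21 a negative log2 fold change. Mice FO1 and FO2 gave 1456 and 1489 crypt-type UMIs, and without either of them 67 or 75 genes had enough UMIs; none of the crypt base, cell cycle or fatty acid synthesis genes was among the 32. Every FO mouse lay below every CO mouse in 2 of the 32 genes (6.25%), and above in none (0%).

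Those 2 genes were Krt8 and Stk25. Krt8 gave 28.5, 17.4, 36.8 and 23.7 UMIs per 10000 in mice CO1 to CO4 and 6.87, 6.72 and 15.8 in mice FO1, FO2 and FO4. In the fit this was a log2 fold change of -0.97 (SE 0.65, adjusted p = 0.940 by edgeR), and the differences within pools were -1.80 and -1.12. Its low FO values came from 1 UMI each in FO1 and FO2, and 5 of the 6 barcodes of FO1 held adipocyte genes. Without all barcodes that held adipocyte UMIs, which drops mouse FO1, the log2 fold change was -0.82 (adjusted p = 0.999 by edgeR). Without mouse CO2 it was the 1 gene called of 11 tested (edgeR adjusted p = 0.0184).

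Stk25, a Golgi-linked kinase, gave 4, 14, 5 and 20 UMIs in mice CO1 to CO4 and 0, 0 and 45 in FO1, FO2 and FO4, or 0, 0 and 8.47 per 10000, with a log2 fold change of -1.31 (SE 0.81; edgeR adjusted p = 0.940). Without mouse FO4 both remaining FO mice were at 0, and the fitted value, which then depends on the prior count, was -6.05 (edgeR adjusted p = 0.179). That was the lowest of 17 alternatives, which ran up to -0.66, and none called the gene. Fhl1, a LIM domain protein, had the smallest p of the 32, with 11.4, 21.2, 0 and 17.1 per 10000 against 0, 6.72 and 2.63 (log2 fold change -2.13, SE 1.13, edgeR adjusted p = 0.940). All 4 epithelial-list genes tested, Krt8, Krt19, Elf3 and Lgals4, had negative fold changes, with a median of -0.67 beside -0.21 over the 32 genes tested, and none was called. Mouse FO1, where most crypt-type barcodes held adipocyte genes, gave 0 UMIs of Fhl1, Stk25, Krt19 and Elf3, 1 of Krt8 and 4 of Lgals4. These fold changes are therefore no measure of epithelial barcodes alone. Among positive values, Txnip, a thioredoxin-binding protein, had a log2 fold change of 0.52 (SE 0.61), Srsf1 of 0.74 (SE 1.02) and Klf4 of 0.42 (SE 0.69), none called.

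Whether the diet difference itself differed between crypt-type and absorptive barcodes was tested for 198 genes with the mouse as a block. Again 0 were called (0%, edgeR interaction test, 1 at an unadjusted p under 0.05). That gene was Clec2h, a lectin-like receptor of the gut lining, with a log2 difference of -2.06 (SE 1.00; edgeR adjusted p = 0.999). Slc13a2, a sodium-coupled carrier of dicarboxylates and citrate, gave 2, 1, 0 and 4 UMIs in crypt-type barcodes of CO mice and 0, 2, 0 and 10 in those of FO mice. In absorptive barcodes the same gene gave 0, 1, 0 and 4 against 5, 4, 7 and 42. The log2 difference between the classes was -2.81 (SE 1.60; edgeR adjusted p = 0.999), so the 2 classes could not be separated in this respect at this depth.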

How the data were processed

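The members, gene lists and comparisons were chosen with earlier results of these data known. The deposited matrices hold raw UMI counts per gene (19065) and barcode, per the file headers, with no normalization; the submitters' processing notes name Cell Ranger 8.0.0 and the builds mm10 and GRCm39. Gene positions were looked up by ID in GRCm38, since the files hold none. Doublets were not called. Libraries held 106 to 5180 barcodes and 34758 to 245476 UMIs. Intervals (95%) are exact Poisson or binomial and cover counting error only.

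Counts were summed per mouse, the labels' biological replicate, over mice with at least 5 crypt-type barcodes. Sums were tested with edgeR 4.0.16 in R 4.3.3 (filterByExpr minimum count 5, TMM, robust quasi-likelihood), leaving the 23 rule genes, haemoglobin and mitochondrial genes untested; limma 3.58.1 and DESeq2 1.42.0 were alternatives. The fit was tested on simulated data. Shares and list levels were compared by exact permutation (scipy 1.17.1). Named genes were all rule genes, up to 4 per list with most member UMIs, up to 15 per direction against absorptive or all other barcodes, the 8 genes of smallest p per direction for diet, and 14 genes fixed by name; others are named because of their values. Not all are given. Some items are not reported here.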

Additional observations from a re-analysis of the deposited data

Results flagged for a closer look

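In mouse FO4 the median crypt-type barcode held 571.5 UMIs, far from the 189 to 223.5 of the other 3 FO mice; this mouse also gave 82 of the 97 crypt-type barcodes of its diet. In mouse CO4 adipocyte and mesothelial genes stood at 12.7 UMIs per 10000 in crypt-type barcodes, from 2 of its 37 barcodes, where the other 3 CO mice had 0. These 2 values were the ones standing apart among 15 groups of 4 mice examined. For values that vary continuously, chance sets about 1 in 20 groups apart. With 3 values of 0 any level in the remaining mouse is set apart, so that rate does not apply to the adipocyte value.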

How the results depend on the processing

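The diet difference in crypt-type share of kept barcodes (1.79 points) was 4.84 with at least 200 UMIs per barcode, -0.121 with at least 500, -0.250 with Acly out of the rule, -0.0394 without adipocyte-gene barcodes and -0.692 within pool 1; leaving out a mouse gave -5.03 (without mouse FO4, the only one to turn the sign) to 4.79. The share of epithelial classes (-2.37 points) was -9.98 with Acly out of the rule, -9.92 without adipocyte-gene barcodes, -3.71 with at least 200 UMIs, 0.404 after thinning to 100 UMIs, 3.24 with at least 500 UMIs and 10.8 within pool 1, and ranged from -7.59 to 3.16 with a mouse left out, positive without mouse CO1 (2.21) or FO2 (1.99) or FO3 (3.16). The cell cycle level difference (6.27 per 10000) was 12.8 in mice with at least 10 crypt-type barcodes, 12.2 with at least 3 rule UMIs and 12.1 with at least 200 UMIs, each 3 mice against 1 and untested, and 3.08 to 7.98 with a mouse left out; that of crypt base genes (4.75) was 18.4 with at least 200 UMIs and -1.43 to 11.3 with a mouse left out. No exact permutation p in these settings was below 0.1. For cell cycle and crypt base genes with a mouse left out, the smallest p possible was itself 0.1 or 0.133. Those settings could not have given a lower value, so they do not show that the result was stable. The cause of the changes was not tested.

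Genes called between diets numbered 0 in all settings fitted but the one without mouse CO2, which called 1, Krt8, giving 0 to 1 over mice left out; Krt8 was 0.029 (log2) with at least 3 rule UMIs. Without a count filter 0 of 10403 genes were called, 205 at an unadjusted p under 0.05. The interaction with absorptive barcodes called 0 in all 10 alternatives. The fit on counts thinned to the smallest mouse could not be made. The alternatives without Acly, without adipocyte-gene barcodes and with at least 1 of 5 rule genes were chosen after seeing the data.

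Mouse numbers were shared between diets, and the labels state no pairing. Same-numbered mice did not deviate together (3 correlations from -0.25 to 0.01), but with so few UMIs this cannot exclude a pairing. Mice CO2 and FO2 carried the same sample barcode, as did mice CO3 and FO3. Mice CO1 and FO1 shared pool 1, and mice CO4 and FO4 shared pool 2. With the number as a replicate block 0 genes were called and the 4 differences were 1.79, -2.37, 6.40 and 1.98 (exact sign-flip permutation p from 0.25 to 0.875). Of the 7 mice in the gene test, 5 gave 5180 or fewer crypt-type UMIs.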
